A study of Mus musculus with 6 samples.

Results

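Cytochrome P450 family 4 was followed here through 6 mouse genes, Cyp4a10, Cyp4a14, Cyp4f13, Cyp4f14, Cyp4f15 and Cyp4v3, on arrays of livers with and without a LIGHT transgene. The first pair belongs to subfamily 4a, the next 3 to subfamily 4f, and Cyp4v3 to neither. Every probe set whose annotated symbol names 1 of these genes, alone or with a paralog, was taken, which gave 7 of the 45101 probe sets on the array. Of these, 6 name 1 gene and 1 names 2 genes, Cyp4a31 and Cyp4a10. No probe set names Cyp4a10 alone, so no value here is of Cyp4a10 by itself. Cyp4v3 has 2 probe sets and the other genes have 1 each. The genes were chosen on LIGHT Tg against WT values of these same arrays, so their values in that contrast are given as a description, without a test.

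Enzymes of this family sit in the membrane of the endoplasmic reticulum and hydroxylate fatty acids at or next to the terminal methyl carbon, a step called omega hydroxylation. The hydroxyl group is oxidised by alcohol and aldehyde dehydrogenases to a dicarboxylic acid, which peroxisomes then shorten. In rodent liver the Cyp4a genes are classical targets of the fatty acid receptor PPARalpha, while Cyp4f enzymes are known for hydroxylating long fatty acids, leukotrienes and vitamin E.

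The series holds 6 whole-liver arrays of mice 4 to 8 weeks old that were fed a high-fat diet for 2 weeks. The 3 LIGHT Tg arrays come from mice with a LIGHT transgene, LIGHT being the protein of Tnfsf14, a cytokine of the tumour necrosis factor family, and the 3 WT arrays come from B6 mice without it. Titles and source names set the genotypes, and of these fields B6 stands only in source names of WT arrays. The free-text descriptions of all 6 samples, LIGHT Tg included, speak of wild-type B6 mice. The strain of the LIGHT Tg mice is therefore not settled, genetic background cannot be told apart from the transgene, and the sources used here do not say which promoter or cell type drives the transgene. Nothing in the labels says that each sample is a separate animal, so p-values reflect only how much these samples vary, which may be technical, and the number of arrays limits the precision.

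LIGHT Tg 1, 2 and 3 are titled 77, 34 and 35, and WT 1, 2 and 3 are titled 78, 30 and 31. The arrays titled 77 and 78, 1 of each genotype, stand apart from the 4 titled 30 to 35. Xist, the RNA of the inactive X chromosome, read 5.4 and 7.1 at 1 of its probe sets on 77 and 78, against 6673 to 8406 on the others. The Y-linked Eif2s3y read 1272 and 1037 at 1 probe set on 77 and 78, against at most 2.82 on the others, and at its other, dim probe set 41.5 and 62.6 against 4.4 to 29.6. An 18S ribosomal RNA control read 196 and 243 on 77 and 78, against 17443 to 17948 on the others. The Xist and Eif2s3y signals are those of male livers on 77 and 78 and of female livers on the others. The sources used here do not say what the title numbers stand for. Effects of sex therefore cannot be told apart from those of any handling that went with the numbers. The difference of each of the 7 probe sets is therefore also given for 77 against 78 and for the arrays titled 30 to 35. For most other genes it is not. Tnfsf14 was dim, with signals of 55.7, 19.3 and 26.7 in LIGHT Tg livers and 7.7, 11.9 and 7.43 in WT livers at 1 probe set, under the level needed for testing. The other Tnfsf14 probe set overlapped, at 2.3 to 5.6 in LIGHT Tg livers and 3.75 to 7.83 in WT livers. Of 8 hepatocyte markers 6 were matched and tested, and their summed signal lay at 119294 to 125279 in LIGHT Tg livers and 122140.3 to 125502 in WT livers.

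The DNA in front of the genes is shown because the values below put members of 1 gene cluster side by side. Cyp4f13, Cyp4f14 and Cyp4f15 lie in a single cluster, with Cyp4f13 next to Cyp4f14, and Cyp4a10 is flanked by Cyp4a14 and, past a pseudogene, Cyp4a31 in another. RefSeq promoter entries of the mouse build GRCm38.p6 matched 4 of the 6 genes, and Cyp4a10 and Cyp4a14 had none in that table. Each line gives 150 bases, 5′ to 3′ on the strand of the gene, that end where the RefSeq gene record begins. Capitals mark ATTGG, which is CCAAT read on the opposite strand. The Cyp4f13 stretch is chr17:32947416-32947565 on the minus strand. That of Cyp4f14 is chr17:32917377-32917526, also minus. For Cyp4f15 it is chr17:32685481-32685630 on the plus strand. Cyp4v3 is at chr8:45333164-45333313, minus.
Cyp4f13: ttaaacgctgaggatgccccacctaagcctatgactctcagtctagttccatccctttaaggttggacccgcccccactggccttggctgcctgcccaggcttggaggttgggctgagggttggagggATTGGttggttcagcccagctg
Cyp4f14: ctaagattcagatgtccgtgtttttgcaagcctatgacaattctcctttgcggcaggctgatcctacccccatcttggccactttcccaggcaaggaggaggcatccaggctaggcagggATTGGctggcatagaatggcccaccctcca
Cyp4f15: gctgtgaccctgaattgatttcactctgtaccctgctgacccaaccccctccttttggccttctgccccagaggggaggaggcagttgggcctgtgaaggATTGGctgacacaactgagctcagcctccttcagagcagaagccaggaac
Cyp4v3: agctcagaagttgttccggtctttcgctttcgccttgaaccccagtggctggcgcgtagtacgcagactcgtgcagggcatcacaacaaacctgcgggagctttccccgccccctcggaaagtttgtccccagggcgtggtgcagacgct

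The search covered the whole 300 bases of each entry, 250 before and 50 after the start, on both strands. ATTGG begins 76 bases before the listed start of Cyp4f13, 50 before the outermost of 4 listed starts of Cyp4f14, and 78 before that of Cyp4f15. Cyp4v3 holds no CCAAT in either orientation. Over all 32851 promoter entries of that length, 37.4% hold CCAAT. The hexamer AGGTCA, which many nuclear receptors read, was in none of the windows of these 4 genes and in 16.3% of all entries. Direct repeats of AGGTCA with 1 base between, the form PPARalpha binds, were searched with at most 2 mismatches among their 12 letters. They were in none of the 4 genes' windows and in 3.86% of all entries, and TATAAA was likewise in none against 13.6%. These matches describe letters in a window and nothing more.

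Signals are MAS5 values on a linear scale, 1 per probe set and array, and differences are on the log2 scale, LIGHT Tg minus WT. Levels of different probe sets are not comparable, so each difference is taken within 1 probe set. The summed signals of marker lists mix probe sets and weigh bright ones most. All 7 probe sets cleared the level needed for testing, a mean log2 signal of 7.39 (a signal of 167), which 22519 probe sets reached.

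Cyp4a14, a fatty acid hydroxylase that PPARalpha agonists induce strongly in mouse liver, had the widest spread of the 6 genes. Its signals were 249, 681 and 197 in LIGHT Tg livers and 1261, 14469 and 12112 in WT livers. Every LIGHT Tg array lay below every WT array, and WT 1, titled 78, was far below the other WT arrays. Mean log2 signals were 8.33 ± 0.95 in LIGHT Tg livers and 12.56 ± 1.96 in WT livers (SD, n = 3 each). The difference was -4.23 ± 0.94 (SE), 18.8-fold lower in LIGHT Tg livers. It came to -2.34, or 5.07-fold, between 77 and 78, and to -5.18, or 36.2-fold, between 34 and 35 and the arrays titled 30 and 31. Leaving out 1 array at a time put it between -3.60 (without WT 2) and -5.36 (without WT 1).

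Cyp4a10, a lauric acid hydroxylase, was read only together with Cyp4a31. The shared probe set had signals of 8291, 15773 and 8637 in LIGHT Tg livers and 7003, 17431 and 16698 in WT livers. The genotypes overlapped, with WT 1 lowest of all 6 arrays and LIGHT Tg 2 close to the other WT arrays. The difference was -0.28 ± 0.40, and its sign turned between the sets, at 0.24 for 77 against 78 and -0.55 among the arrays titled 30 to 35.

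**Figure D1:**
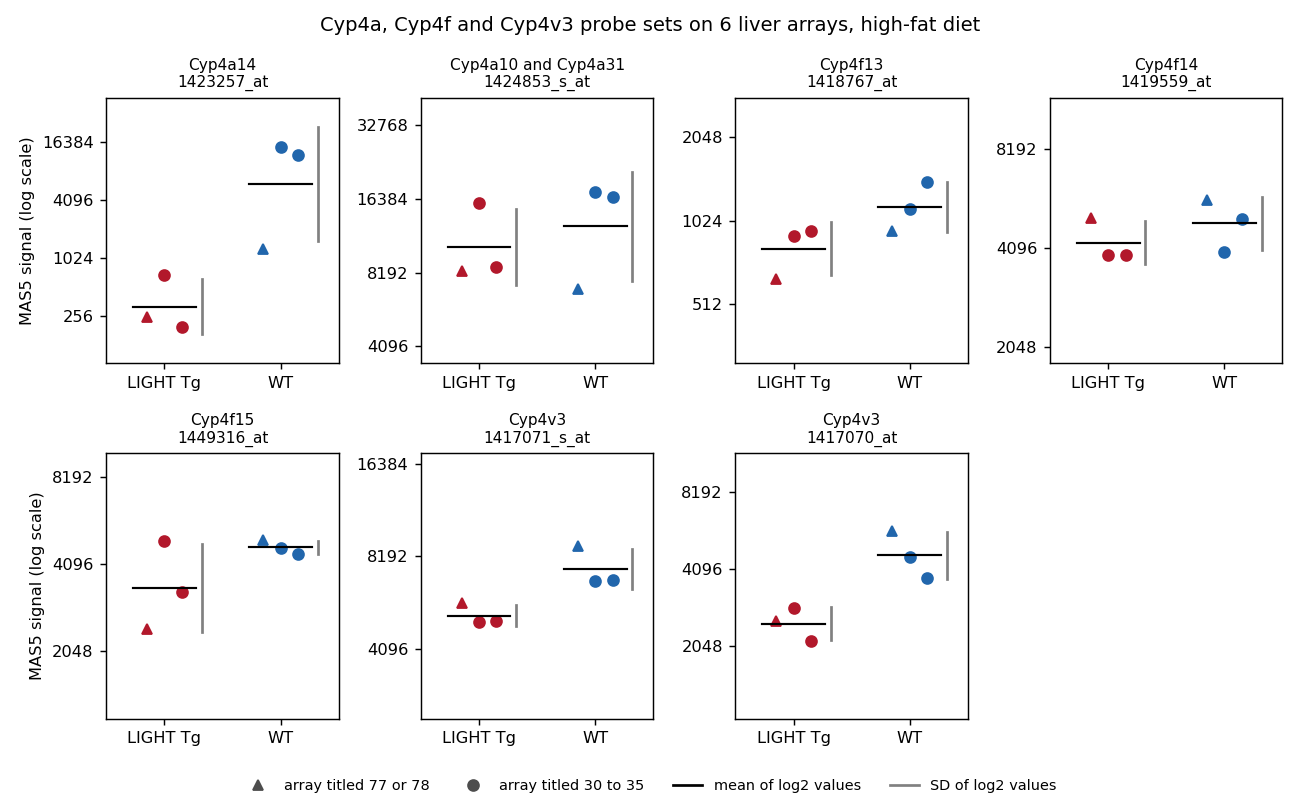
MAS5 signals of the 7 probe sets on each array (log axis, a scale per panel), LIGHT Tg left of WT, with triangles for the arrays titled 77 and 78, circles for those titled 30 to 35, black lines for means and grey bars for ± 1 SD of log2 values. Genotypes are fully apart in the Cyp4a14 panel and in both Cyp4v3 panels and overlap in the other 4 panels.

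Cyp4a31 alone went the other way from Cyp4a14. At its brighter probe set the signals were 4952, 4804 and 4218 in LIGHT Tg livers and 997, 1249.6 and 1852 in WT livers. All LIGHT Tg arrays lay above all WT arrays. Cyp4a31, a close paralog of Cyp4a10 and not among the 6 genes, rose by 1.81 ± 0.24 (3.52-fold, limma with Benjamini-Hochberg adjustment, adjusted p = 0.0198). The gene was named from a list drawn up with earlier results of these data known, so this call is no independent test. Between 77 and 78 the rise was 2.31, and among the arrays titled 30 to 35 it was 1.57. The adjusted p passed 5% when WT 1 or WT 3 was left out and was 0.0536, 0.0900, 0.103 and 0.104 without LIGHT Tg 1, LIGHT Tg 2, LIGHT Tg 3 and WT 2. The dimmer Cyp4a31 probe set read 438, 1723 and 1372 in LIGHT Tg livers and 133, 232 and 359.8 in WT livers, again without overlap, and its difference of 2.18 ± 0.57 did not pass (limma adjusted p = 0.171) but passed with the title-number set in the model (0.0037).

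Probes can read more than 1 near-identical paralog, and the annotation does not say how much of the shared signal is Cyp4a10. Cyp4a12a, which hydroxylates arachidonic acid and is known as male-biased in mice, read 2465, 66.6 and 581 in LIGHT Tg livers and 8818, 77.5 and 45.8 in WT livers. Its high values were on 77 and 78, with LIGHT Tg 3 in between, and the genotypes overlapped. Its difference was -1.84 between 77 and 78 and 1.72 among the arrays titled 30 to 35.

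**Figure D2:**
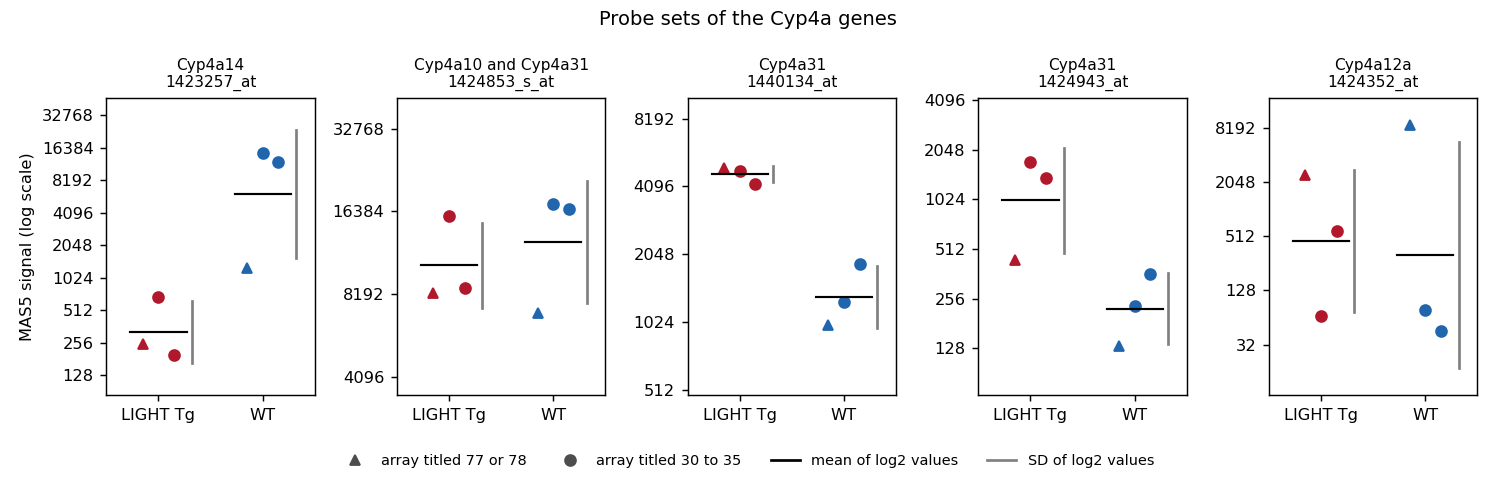
MAS5 signals (log axis, a scale per panel) of the Cyp4a probe sets on each array, LIGHT Tg left of WT, with triangles for 77 and 78, circles for 30 to 35, black lines for means and grey bars for ± 1 SD of log2 values. Cyp4a14 is lower in all 3 LIGHT Tg livers, both Cyp4a31 probe sets are higher in all 3, the shared probe set overlaps, and Cyp4a12a follows the title numbers.

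Cyp4f13, in the subfamily 4f cluster, had signals of 630.0, 902 and 942 in LIGHT Tg livers and 941, 1130.4 and 1418 in WT livers. LIGHT Tg 3 and WT 1 met at the same level, and the other arrays were apart by genotype. The difference was -0.50 ± 0.24, with -0.58 between 77 and 78 and -0.46 among the others.

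Cyp4f14, whose enzyme hydroxylates leukotriene B4 and vitamin E, read 5051, 3886 and 3899.6 in LIGHT Tg livers and 5737, 3978 and 5021 in WT livers. Genotypes overlapped, and both arrays titled 77 and 78 were the highest of their genotype. At -0.19 ± 0.18 its difference was the smallest of the 7, and it was -0.18 and -0.20 within the sets.

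Cyp4f15, in the same cluster, read 2427, 4896 and 3258 in LIGHT Tg livers and 4945, 4653 and 4443 in WT livers. WT arrays were close together, while LIGHT Tg arrays ranged from well below them to LIGHT Tg 2, which lay among the WT values. Mean log2 signals were 11.72 ± 0.51 in LIGHT Tg livers and 12.19 ± 0.08 in WT livers (SD, n = 3 each), a difference of -0.47 ± 0.25. Between 77 and 78 it was -1.03, and among the others -0.19.

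Cyp4v3 is the mouse counterpart of human CYP4V2, a fatty acid hydroxylase gene mutated in Bietti crystalline dystrophy of the retina. Its first probe set read 2567, 2886 and 2145 in LIGHT Tg livers and 5775, 4560.3 and 3777 in WT livers. No LIGHT Tg array reached any WT array. The difference was -0.88 ± 0.20, 1.84-fold lower in LIGHT Tg livers, with -1.17 between 77 and 78 and -0.74 among the others.

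At the second Cyp4v3 probe set the signals were 5760.2, 5005 and 5041 in LIGHT Tg livers and 8862, 6829.6 and 6866 in WT livers. The genotypes were apart here too, with the 77 and 78 arrays highest in each. Its difference was -0.51 ± 0.15, 1.42-fold lower in LIGHT Tg livers, with -0.62 and -0.45 within the sets. Both probe sets of the gene thus have the same sign in each set of arrays and differ in size.

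All 7 probe sets had negative differences over the 6 arrays, with a median of -0.50, against a median of -0.01 over all 22519 tested. In the arrays titled 30 to 35 all 7 were negative (median -0.46), and between 77 and 78 it was 6 (median -0.62), the exception being the shared Cyp4a10 and Cyp4a31 probe set. For 3 probe sets, those of Cyp4a14 and Cyp4v3, every LIGHT Tg array lay below every WT array, as it did for 9.19% of tested probe sets, and for 0 every LIGHT Tg array lay above, against 8.17%. Because the genes were taken with this contrast known, nothing is read from these counts.

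**Figure D3:**
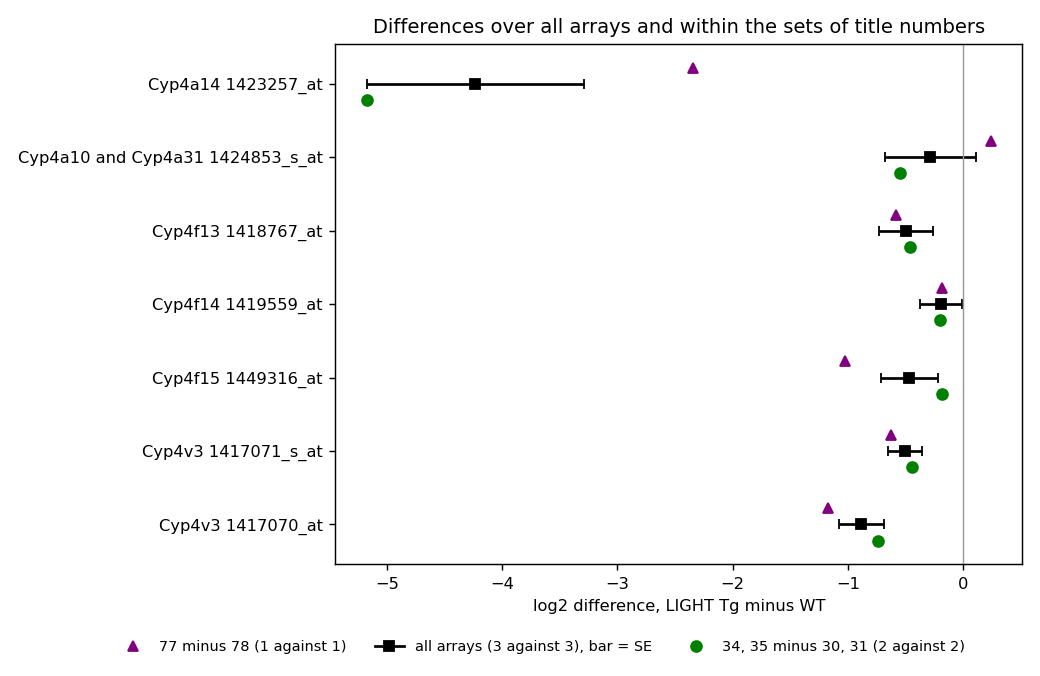
Log2 differences, LIGHT Tg minus WT, of the 7 probe sets: squares with SE bars for all 6 arrays, triangles for 77 minus 78, circles for 34 and 35 minus 30 and 31. Cyp4a14 lies far left of the rest at -4.23, and only the triangle of the shared Cyp4a10 and Cyp4a31 probe set is right of 0.

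Part of the endothelial marker list differed by genotype. Of 6 tested, 2 rose in LIGHT Tg livers, where 0.715% of all tested probe sets were called higher. These were Vwf, by 2.39 ± 0.23 (limma adjusted p = 0.00678), and Lyve1, by 1.24 ± 0.20 (adjusted p = 0.0393). Stab2 (0.75), Clec4g (0.36), Pecam1 (0.19) and Kdr (-0.09) did not pass in that fit (limma adjusted p = 0.125 to 0.967). The summed signal of the list was 9619 to 12325 in LIGHT Tg livers and 6159 to 7273 in WT livers. Leaving out 1 array, a check added after seeing the data, ended the Vwf call without LIGHT Tg 3 (adjusted p = 0.0512) and the Lyve1 call without any array but LIGHT Tg 1 (0.0597 to 0.174). With the title-number set in the model the endothelial marker Stab2 was also higher (0.75, adjusted p = 0.0127). Without that term no marker passed among 6 of hepatocytes, 7 of Kupffer cells and macrophages, 4 of neutrophils and monocytes, 2 of lymphocytes, 6 of stellate cells, 1 of bile duct, 1 of kidney tubule or 1 of pancreas, and no adipocyte marker was bright enough to test. With it, the kidney marker Kap was higher (0.65, adjusted p = 0.0349) and the pancreas marker Cela1 lower (-0.59, adjusted p = 0.0304). No listed marker was read at a signal below 1 at the probe set used. The part of these marker differences in the Cyp4 values was not tested. In whole liver, fewer cells of a type and less RNA per cell cannot be told apart.

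The arrays titled 77 and 78 were then set against those titled 30 to 35, with genotype in the model, a contrast the genes were not chosen on. Of the 7 probe sets 3 passed 5% FDR, 2 lower and 1 higher on 77 and 78, where 15.7% of all tested were called lower and 11.7% higher. The shared Cyp4a10 and Cyp4a31 probe set was lower by this test, with mean log2 signals of 12.90 on 77 and 78 and 13.79 on the others and a difference of -0.89 ± 0.26 (limma adjusted p = 0.0403). Cyp4f13 was also lower, at 9.59 against 10.08, a difference of -0.49 ± 0.14 (limma adjusted p = 0.0425). The second Cyp4v3 probe set was higher, at 12.80 against 12.52, a difference of 0.29 ± 0.08 (limma adjusted p = 0.0429).

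These 3 calls lie close to the threshold and end under several settings. Without LIGHT Tg 1 or WT 1 the 77 and 78 side holds 1 array, which is assumed to vary like the others. Without 1 array, the shared probe set still passed when LIGHT Tg 1 (adjusted p = 0.0462) or LIGHT Tg 3 (0.00439) was left out, and had 0.0744 to 0.328 without LIGHT Tg 2, WT 1, WT 2 or WT 3. Cyp4f13 still passed without WT 2 (0.0427) and had 0.0824 to 0.183 without each of the others. The Cyp4v3 probe set had 0.0646 to 0.260 whichever array was left out.

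Cyp4a14 did not pass this contrast, at -1.97 ± 0.68 (limma adjusted p = 0.0677), although it did without LIGHT Tg 1 (-3.39, adjusted p = 0.0246), with WT 1 alone against the rest, or without LIGHT Tg 3 (-2.56, adjusted p = 0.0126). Cyp4f14 was at 0.37 ± 0.11 (0.0504), Cyp4f15 at -0.30 ± 0.22 (0.348) and the first Cyp4v3 probe set at 0.26 ± 0.17 (0.276), each with its adjusted p from the same fit. Some sex-biased liver genes and some cell type markers differed across the same split. Of 9 male-biased genes tested 3 were higher on 77 and 78, Cyp4a12a (by 5.43), Cyp2d9 (by 2.87) and Gstp1 (by 0.50). Among 11 female-biased genes 6 were lower there, Cyp2b9, Cyp2b13, Cyp3a16, Fmo2, Hao2 and Acot4, and 1, Cux2, was higher. Over all tested probe sets 11.7% were higher there and 15.7% lower. Of the cell type markers, Epcam (by 3.26), Col1a1 (by 1.36), Des (by 1.18), Cd68 (by 0.94) and Alb (by 0.295) were higher by the same test. Ccr2 (-1.21), Kap (-0.925) and Apoa1 (-0.183) were lower. The part of these sex-biased genes and markers in the Cyp4 values was not tested.

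Whether the genotype difference itself differed between the sets was tested with an interaction term. None of the 7 probe sets passed 5% FDR in limma, as against 0.0666% of all tested. Of the 7, 2 had an unadjusted p under 0.05, as had 2474 of all 22519 tested. For Cyp4a14 the difference was -2.34 between 77 and 78 and -5.18 among the others (gap 2.84, adjusted p = 0.359). For Cyp4f15 it was -1.03 and -0.19 (gap -0.84, adjusted p = 0.454). The other 5 had adjusted p between 0.583 and 0.987. The fit leaves 2 residual degrees of freedom and has 1 array per genotype at 77 and 78, so a miss does not show that the sets agree.

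Among themselves the genes fell into unlike profiles over the 6 arrays, measured as the root mean square gap between log2 values centred on each gene's mean. The most alike pair was Cyp4f14 and the brighter Cyp4v3 probe set, at 0.19, followed by Cyp4f13 and Cyp4f15 at 0.29. Cyp4a14 was 2.11 to 2.46 away from each of the others, the nearest being the shared Cyp4a10 and Cyp4a31 probe set. Gaps grow with a gene's own range, so this order partly restates the size of its differences.

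Among tested probe sets that name 1 gene, those nearest to Cyp4a14 were Rgs16, a regulator of G-protein signalling (0.56), Car3, a carbonic anhydrase (0.76), and Avpr1a, a vasopressin receptor (0.997). Rgs16 read 66.6, 302 and 34.8 in LIGHT Tg livers and 762, 4416 and 4463 in WT livers, low on WT 1 among the WT arrays as Cyp4a14 was. Nearest to the shared Cyp4a10 and Cyp4a31 probe set were Usp30, a mitochondrial deubiquitinase (0.12), Otc, a urea cycle enzyme (0.12), and Diaph1, an actin nucleator (0.16). Grb14, an insulin receptor adaptor (0.08), Zfp367 (0.08) and Tprkb (0.09) were nearest to Cyp4f13. Nearest to Cyp4f14 were 1110032A03Rik (0.02), the Wnt receptor Fzd4 (0.03) and Cpsf1 (0.03). Ddit4, a stress-induced inhibitor of mTOR signalling (0.06), Arid2 (0.06) and 0610010F05Rik (0.07) were nearest to Cyp4f15. The brighter Cyp4v3 probe set had Lrba, Ahcyl1 and Bag4 nearest, at 0.04 each. With so many probe sets and 6 arrays, near profiles of small range are easily found.

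Genes related to these hydroxylases were taken from lists, 1 probe set per gene, in the LIGHT Tg against WT fit. Only probe sets that name 1 gene were used, which left out 1 that names Cyp4f37 and Cyp4f16. The lists were drawn up with earlier results of these data known, so calls among them are no independent test. Over all tested probe sets this fit called 0.457% lower and 0.715% higher, and 3.21% lower and 3.26% higher with the title-number set in the model. Outside the 6 genes, 14 other Cyp4 genes were listed, 7 matched and 4 were tested, and 1, Cyp4a31, rose (above). Cyp4f16 (0.41 ± 0.29, limma adjusted p = 0.741) and Cyp4b1 (0.05 ± 0.19, adjusted p = 0.980) did not pass, nor did Cyp4a12a (0.54 ± 2.12, adjusted p = 0.981). Cyp4f39 was too dim to test, with signals of 128, 97.0 and 126 in LIGHT Tg livers and 207, 140.5 and 169 in WT livers.

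Of 6 listed electron donors of P450 enzymes 4 were matched and tested, with 0 of 4 past 5% FDR and a median difference of -0.10. Por and Fdxr, also listed, had no probe set that names them alone, so electron supply was covered only in part. Fdx1, the ferredoxin of mitochondrial P450 enzymes, had -0.59 ± 0.23 (limma adjusted p = 0.383, and 0.0167 with the set in the model). Cyb5r3, the reductase of cytochrome b5, had 0.38 ± 0.16 (0.447), and cytochrome b5 itself, Cyb5a, had -0.14 ± 0.09 (0.719). Across the title numbers, Fdx1 was higher on 77 and 78 by 0.54 (adjusted p = 0.0113) and Cyb5b lower, at -1.89 (adjusted p = 0.000488).

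Among PPAR receptors, their partners and other liver receptors and cofactors, 0 of 12 tested passed in either direction, with a median of -0.11. Of the PPAR genes only Ppara was bright enough to test. Ppard, too dim to test, read 177, 252 and 275 in LIGHT Tg livers and 57.1, 51.0 and 102 in WT livers, without overlap. Pparg, also too dim, read 37.1, 22.8 and 18.2 in LIGHT Tg livers and 55.6, 117 and 66.0 in WT livers, again without overlap. Rxrg was dim as well, and its genotypes overlapped. Ppara, the gene of PPARalpha, read 6390.4, 3449 and 3174 in LIGHT Tg livers and 8045, 2808 and 4148 in WT livers. Its values overlapped between genotypes (-0.14 ± 0.42, limma adjusted p = 0.970) and were higher on 77 and 78 by 1.09 (adjusted p = 0.00549). Nr1i3, the xenobiotic receptor CAR, had -0.88 ± 0.24 (0.181), the coactivator Ppargc1b had -2.21 ± 0.72 (0.286) and Rxra, the partner of PPARalpha, had -0.45 ± 0.15 (0.290), with adjusted p of the genotype fit in brackets. Rxrb and Med1 were also higher on 77 and 78, by 0.64 and 0.92.

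Of 30 other PPARalpha target genes tested, 0 rose and 0 fell, 10 differences were positive and 20 negative, and the median was -0.09. With the title-number set in the model 4 were higher and 5 lower. Acaa1b, a peroxisomal thiolase, read 8143, 14044 and 8262 in LIGHT Tg livers and 19192, 20694 and 20177 in WT livers. The genotypes did not overlap, and the difference was -1.03 ± 0.21 (limma adjusted p = 0.0860, and 0.0206 with the set in the model). Slc22a5, the carnitine transporter, had -0.74 ± 0.17 (0.122, and 0.0204) and Ech1, an isomerase of fatty acid oxidation, had -0.58 ± 0.15 (0.156, and 0.0202). Pex11a and Acadm were the other lower genes in the fit with the set. The higher ones there were the thioesterases Acot3 and Acot4, the pantetheinase Vnn1 and the hepatokine Fgf21. On 77 and 78, 2 of the 30 were higher, Acot2 and Pex11a, and 7 lower, Acot4, Fabp1, Pdk4, Vnn1, Acadm, Acadl and Hadhb. Over all tested probe sets that contrast called 11.7% higher and 15.7% lower.

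Downstream of omega hydroxylation, 17 genes of the oxidation to dicarboxylic acids and their shortening were tested, of which 0 rose and 1 fell, with a median of -0.21 and 15 negative differences. Adh4, an alcohol dehydrogenase of liver, fell to 2085, 2598 and 2743 in LIGHT Tg livers, against 5177, 5387 and 6830.1 in WT livers. The genotypes were well apart, with a difference of -1.23 ± 0.17 (limma adjusted p = 0.0249). That call was lost without LIGHT Tg 2, LIGHT Tg 3, WT 2 or WT 3, where adjusted p lay at 0.0935 to 0.109. With the set in the model Aldh1a1, a retinaldehyde dehydrogenase (-0.55, adjusted p = 0.0235), and Crot, a peroxisomal carnitine acyltransferase (-0.64, adjusted p = 0.00816), were also lower. Crot was lower on 77 and 78 by the set contrast, at -0.95 (adjusted p = 0.00142).

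Among 11 tested genes of eicosanoid synthesis and clearance, whose products Cyp4f enzymes hydroxylate, 1 rose and 1 fell, with a median of -0.09. Lta4h, the hydrolase that makes leukotriene B4, read 3056, 4570.5 and 4563 in LIGHT Tg livers and 1488, 1816 and 1665 in WT livers. It rose by 1.28 ± 0.20 (limma adjusted p = 0.0360), and the call was lost when any array but LIGHT Tg 1 was left out (0.0625 to 0.187). Cyp2j5, an arachidonic acid epoxygenase, read 4845, 4677 and 4879.7 in LIGHT Tg livers and 9609, 13801 and 11772 in WT livers. It fell by 1.27 ± 0.15 (limma adjusted p = 0.0142), and the call was lost without LIGHT Tg 2, LIGHT Tg 3, WT 2 or WT 3 (0.0575 to 0.0899). On 77 and 78 Alox5ap was higher by 0.76 and Lta4h lower, at -0.40.

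**Figure D4:**
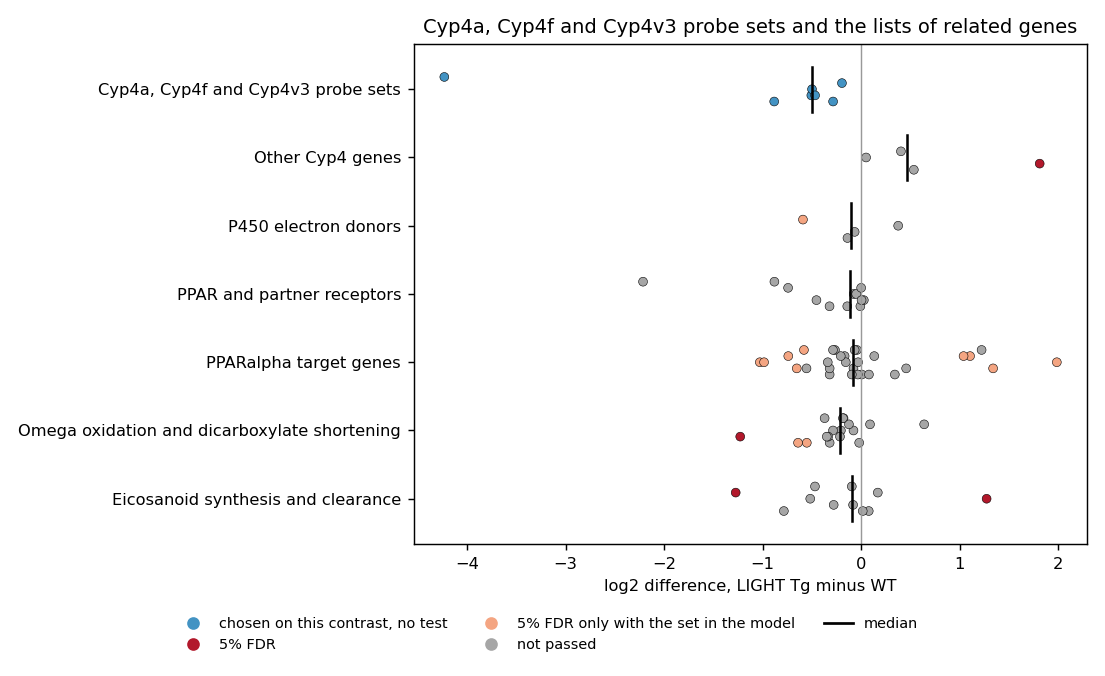
Log2 differences, LIGHT Tg minus WT, of the 7 probe sets (blue, no test) and of the related gene lists, 1 point per gene, with black lines for medians; red passed 5% FDR, orange only with the title-number set in the model, grey neither. The red points are Cyp4a31 and Lta4h on the right and Adh4 and Cyp2j5 on the left.

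Sex-biased liver genes did not pass in the genotype fit, with 0 of 9 male-biased and 0 of 11 female-biased genes past 5% FDR in limma. With the title-number set in the model 2 male-biased genes were lower, Cyp2d9 (-2.13, adjusted p = 0.00876) and Elovl3 (-2.61, adjusted p = 0.0155). In the same fit 6 female-biased genes were higher, Cyp3a44, Cyp3a16, Fmo2, Hao2, Acot3 and Acot4, by 1.11 to 5.42 (adjusted p = 0.0184 to 0.0466). The male-biased median was -0.51, with -3.16 between 77 and 78 and 0.05 among the others, and the largest statistics were those of Elovl3 (-2.61 ± 0.55, limma adjusted p = 0.0959), Serpina4-ps1 (-1.88 ± 0.61, 0.287) and Ugt2b38 (-1.51 ± 0.70, 0.504). The female-biased median was 1.37, with 2.98 between 77 and 78 and 0.85 among the others, led by Cyp3a44 (4.02 ± 1.13, 0.206), Cyp3a16 (5.42 ± 1.67, 0.254) and Acot3 (1.99 ± 0.63, 0.265). Of the 11 female-biased differences 8 were positive and 3 negative, those of Cyp2b9 (-2.76 ± 1.48), Cyp2b13 (-2.84 ± 1.35) and Cux2 (-0.25 ± 0.42). Cyp2b9 and Cyp2b13 had 0.52 and 0.11 between 77 and 78, and -4.40 and -4.31 among the others. The part of these genes in the Cyp4 values was not tested.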

How the data were processed

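The deposited values are intensities that the authors made with MAS5, per the submitters' processing notes, on a linear scale. No source used here gives the MAS5 version, target or detection calls. Trimmed mean signals (2% off each end) lay between 490.0 and 505.1 per array, so per-array scaling is read from the values. The 64 control probe sets were left out; of the other 45037, 34945 had 1 symbol, 932 several and 9160 none, and RefSeq names changed 0 symbols. Signals under 1 (106 values) were set to 1, log2 was taken, and probe sets with a mean log2 of at least 7.387 were tested in limma 3.58.1 (R 4.3.3; lmFit, eBayes with a variance trend, two-sided, Benjamini-Hochberg over 22519, 5% FDR). The steps were tested on simulated data.

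The genes and the lists were chosen with earlier results of these data known. Named genes are all 6 members; from each list the genes past 5% FDR or, failing any, up to 3 with the largest moderated statistic, and those past it between the title-number sets; and the 3 nearest profiles of each member. From the cell type lists only genes that passed are named, except that all 6 endothelial markers are. Genes passing with the set in the model, Cyp4f39, Cyp4b1, Cyp4f16, Ppard, Pparg, Rxrg and the endothelial markers that did not pass were named after their values were seen. Genotype values of Cyp2b9, Cyp2b13 and Cux2 were likewise given after they were seen. Alternatives were no filter, a 75th percentile filter, an offset of 37.5, quantile or median scaling, eBayes without trend or robust, arrayWeights, the set as a block, and arrays left out. Listed genes without a probe set that names them alone count as unmatched and were not analysed here. Figures used matplotlib 3.10.9 (Python 3.11.15).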

Additional observations from a re-analysis of the deposited data

Results flagged for a closer look

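Sult3a1, a sulfotransferase in the female-biased list, had a LIGHT Tg minus WT difference that differed between the title-number sets by an interaction test across all probe sets (by 6.64 on the log2 scale, 8.26 for 77 against 78 and 1.62 among the arrays titled 30 to 35). No Cyp4 probe set listed in the report was marked by that test.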

How the results depend on the processing

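The 7 probe sets of the chosen genes kept a negative difference between LIGHT Tg and WT under every alternative run. Each difference moved by less than the spread between replicates. These runs refit the arrays on which the genes were chosen, so nothing is read from the kept signs. For the shared Cyp4a10 and Cyp4a31 probe set the difference was only -0.05 without WT 2. Between 77 and 78 alone, which was not among these runs, it was 0.24. Calls of the members between LIGHT Tg and WT, though planned, are not given, since the members were chosen on that contrast. Over all probe sets 264 passed (161 higher, 103 lower), 148 without the variance trend, 1992 with arrayWeights, 1457 with the block, 956 in the arrays titled 30 to 35 alone and 43 to 306 without 1 array. In the set contrast 6163 passed, 3465 with the 75th percentile filter, 3632 with arrayWeights, 3523 without the genotype term and 2698 to 4632 without 1 array. Of the members 3 passed there, 1 without a filter, 0 without the trend, 0 with arrayWeights, 0 without the genotype term and 0 to 2 without 1 array. For the interaction 15 passed, 3 without a filter, 7 with the 75th percentile filter and 2 without the trend. The stricter filter tests 11260 probe sets; the cause of the other changes was not tested. Adh4, Lta4h and Lyve1 lost their calls without the trend (adjusted p = 0.0618, 0.0743 and 0.0725), and Lyve1 also without a filter (0.0519). List medians near 0 turned sign without 1 array: PPARalpha targets 0.02 without LIGHT Tg 1, eicosanoid genes 0.04 without LIGHT Tg 2, male-biased genes 0.16 without WT 1, and electron donors 0.10, 0.06 and 0.003 without LIGHT Tg 1, WT 2 and WT 3. No paired analysis was possible because the labels give no replicate number that both genotypes share; replicates were numbered in accession order, and the block is the title-number set. MAS5 signals come without detection calls, so low signals carry no bound.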
